A study of Mus musculus with 4 samples.

Results

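A list of 10 genes of the insulin-like growth factor (IGF) system outside the imprinted *Igf2* and *Igf2r* was examined in cells with and without *Zfp57*. The cells had been differentiated toward neural precursors, and the study calls the mutant ones neural precursor-like. The genes were chosen by name, with earlier results of these data known. They were the ligand gene *Igf1*, the receptor genes *Igf1r* and *Insr*, the receptor substrate genes *Irs1* and *Irs2*, and the binding protein genes *Igfbp2*, *Igfbp3*, *Igfbp4*, *Igfbp5* and *Igfbpl1*. They were 10 of the 55602 genes in the bulk table, and all 10 were among the 19995 genes with enough counts to be tested. The cells were JB1, a hybrid embryonic stem (ES) cell line from a JF1 mother and a C57BL/6 (B6) father, and a *Zfp57*-/- line derived from it, with 2 libraries of each genotype. Both lines had been kept in serum-free 1i medium with the Gsk3 inhibitor CHIR99021 and were then differentiated in DDM, a chemically defined medium, to day 12. Cyclopamine, a Hedgehog pathway inhibitor, was present at 1 µM from day 2 to day 10 in both. Each genotype was a single ES cell line, so that line and genotype cannot be told apart, and p-values cover the spread between the 2 libraries of a line.

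The IGF system couples growth factor supply to cell growth. *Igf1* and *Igf2* encode secreted ligands that act through the type 1 IGF receptor, a tyrosine kinase closely related to the insulin receptor, and the active receptors phosphorylate the docking proteins IRS1 and IRS2, which engage PI3K and AKT. Secreted binding proteins hold the ligands in the extracellular space and are cleaved by proteases such as pappalysins, and in the developing brain the system is known for its part in progenitor proliferation and survival. *Igf2* is transcribed from the paternal allele and *Igf2r*, whose product removes IGF2 from the cell surface, and *Grb10*, an adaptor that restrains receptor signalling, are also imprinted.

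The libraries held between 7663520 and 10337082 bulk counts and between 2837013 and 3826604 counts assigned to an allele. The targeted gene, counted over all its exons, had 392 and 249 counts in wild-type against 158 and 144 in *Zfp57*-/- cells. Pluripotency and neural markers differed between the lines, with 7 of 7 pluripotency markers past the threshold and higher in *Zfp57*-/- cells, and 5 of 6 neural progenitor and 5 of 6 neuronal markers past it and lower (edgeR). Over all genes tested, 27.6% passed. The summed level of 7 pluripotency markers, *Pou5f1* the first of them, was 3.47 and 7.83 CPM, the read counts scaled to a common library size, in wild-type against 1265 and 1134 CPM in *Zfp57*-/- cells, with *Nanog* at 0 counts in both wild-type libraries. The 6 neuronal markers, headed by *Tubb3*, summed to 1474 and 1848 CPM in wild-type against 211 and 165 CPM in *Zfp57*-/- cells, and 6 neural progenitor markers, headed by *Nes*, to 599 and 661 CPM against 223 and 222 CPM. The 8 endoderm markers (*Foxa2* the first) summed to 420 and 665 against 702 and 961 CPM, 6 mesenchyme markers (*Col1a1* the first) to 1196 and 648 against 799 and 795 CPM, and 5 endothelial markers (*Kdr* the first, *Tie1* at 0 counts in *Zfp57*-/- replicate 2) to 91.3 and 112 against 109 and 130 CPM. Of these, 1 of 8 endoderm markers (higher), 1 of 6 mesenchyme markers (lower) and 3 of 5 endothelial markers passed (edgeR), beside the same 27.6%. The 3 endothelial markers differed in direction, with *Kdr* lower (log2 fold change -1.67) and *Pecam1* (2.07) and *Tek* (1.20) higher in *Zfp57*-/- cells. The sums of the mesenchyme and endothelial lists overlapped between the lines. In such bulk samples, fewer cells of a type and less RNA per cell cannot be told apart, and the part of these cell states in the results below was not tested.

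Of the 10 genes, 6 passed the test between genotypes (edgeR, adjusted p under 0.05), against 27.6% of all genes tested. *Igf1* and *Igfbp3* passed as higher in *Zfp57*-/- cells, as did 13% of all genes tested. *Igf1r*, *Insr*, *Igfbp4* and *Igfbpl1* passed as lower, as did 14.6%. *Irs1*, *Irs2*, *Igfbp2* and *Igfbp5* did not pass. In 7 of the 10 genes the 2 wild-type values lay apart from the 2 *Zfp57*-/- values, and the same was true of 66.3% of all genes tested. The median log2 fold change was 0.09 over the 10 genes and -0.01 over all genes tested. The levels below are CPM after TMM scaling, and comparisons between genes are per length, as RPKM, the CPM divided by the summed exon length in kilobases.

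**Figure D1:**
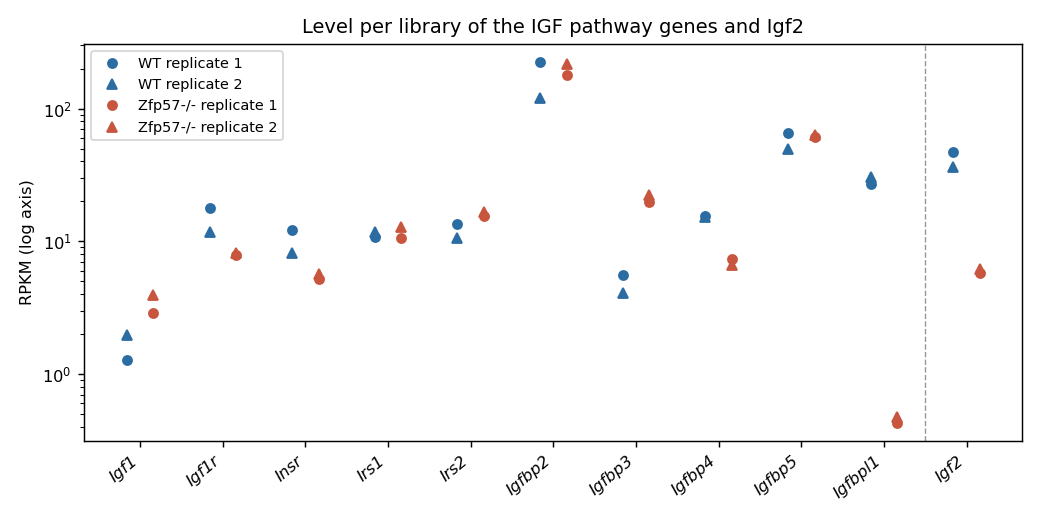
RPKM on a log axis of the 10 IGF genes and, right of the dashed line, *Igf2*, with 1 point for each library (blue, wild-type; red, *Zfp57*-/-; circles and triangles, replicates 1 and 2). *Igfbp2* is the highest and *Igfbp5* the next in all 4 libraries, *Igf1* is the lowest in wild-type cells, and *Igfbpl1* drops from 26.8 and 30.3 RPKM to 0.43 and 0.47 RPKM.

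The ligand *Igf1* (ENSMUSG00000020053.18, GRCm38 chr10:87858265-87937042, plus strand) had 12.6 and 19.5 CPM in wild-type against 28.3 and 39.3 CPM in *Zfp57*-/- cells. The groups did not overlap, and the lowest *Zfp57*-/- library was above the highest wild-type one. The log2 fold change was 1.07 ± 0.28 (SE, n = 2 per group), a 2.10-fold higher level (edgeR adjusted p = 0.018). Without *Zfp57*-/- replicate 2 the log2 fold change was 0.82 with an adjusted p of 0.20 (edgeR). With *Actb* as the scale the median over all genes tested was -0.68, and *Igf1* had a log2 fold change of 0.49 (edgeR adjusted p = 0.58), or 1.17 above that median. *Actb* itself had 1812 and 3596 CPM in wild-type against 3764 and 4013 CPM in *Zfp57*-/- cells, so this scale differs between the wild-type libraries.

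The rise of *Igf1* stood beside the fall of *Igf2*, the other ligand of the same receptor. *Igf2* had 46.9 and 36.3 RPKM in wild-type against 5.78 and 6.22 RPKM in *Zfp57*-/- cells, a 6.93-fold lower level (edgeR adjusted p = 1.8e-05). *Igf1* had 1.28 and 1.97 RPKM against 2.86 and 3.96 RPKM on the same scale. *Igf2* was therefore 36.7 and 18.5 times *Igf1* per length in the wild-type libraries and 2.02 and 1.57 times *Igf1* in the *Zfp57*-/- libraries. Of the summed RPKM of these 2 ligand genes, *Igf2* made up 97.4% and 94.9% in wild-type against 66.9% and 61.1% in *Zfp57*-/- cells. *Igf2* thus remained the larger of the pair in all 4 libraries. The other ligand genes of the family were hardly counted, with *Ins1* at 0 counts in all libraries and *Ins2* at 2 counts in a single wild-type library, and neither was tested.

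Both receptor genes were lower in *Zfp57*-/- cells. *Igf1r* (ENSMUSG00000005533.10, chr7:67952827-68233668, plus strand), which encodes the signalling receptor for both ligands, had 300.4 and 196 CPM in wild-type against 132 and 136 CPM in *Zfp57*-/- cells. *Insr* (ENSMUSG00000005534.10, chr8:3122061-3279617, minus strand), the insulin receptor gene, had 166 and 113 CPM in wild-type against 71.7 and 77.4 CPM in *Zfp57*-/- cells. For each gene all wild-type values were above all *Zfp57*-/- values, and wild-type replicate 1 was the highest, 1.54 and 1.47 times replicate 2. The log2 fold changes were -0.89 ± 0.23 for *Igf1r* (SE, edgeR adjusted p = 0.018) and -0.90 ± 0.22 for *Insr* (SE, edgeR adjusted p = 0.015), folds of 1.85 and 1.87. Both calls were lost when either *Zfp57*-/- library was left out. Without *Zfp57*-/- replicate 1 the edgeR adjusted p was 0.16 for *Igf1r* (log2 fold change -0.86) and 0.16 for *Insr* (-0.84), and without *Zfp57*-/- replicate 2 it was 0.12 (-0.91) and 0.098 (-0.95).

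Among 11289 named genes with a mean of at least 5 CPM, *Igf1r* was the gene whose centred log2 CPM values were nearest to those of *Insr*, at a Euclidean distance of 0.064 over 4 libraries, while *Klhl15* (0.019) and *Pdzd2* (0.041) were nearer to *Igf1r* than *Insr* was. The RPKM of *Igf2* was 2.62 and 3.12 times that of *Igf1r* in wild-type against 0.74 and 0.77 times in *Zfp57*-/- cells. Per length, the *Igf2* transcript thus lay above that of *Igf1r* in wild-type and below it in *Zfp57*-/- cells. *Igf1*, the other ligand gene, is not counted in this ratio. *Igf2r* had 805 and 387 CPM in wild-type against 280 and 275 CPM in *Zfp57*-/- cells (log2 fold change -1.10, edgeR adjusted p = 0.023), and lost its call without *Zfp57*-/- replicate 1 (-1.11, adjusted p = 0.054) or replicate 2 (-1.08, 0.060) in edgeR. Without wild-type replicate 1, which was the highest library, its log2 fold change was -0.51. *Insrr*, the gene of a further receptor of the family, had 8 to 29 counts a library and did not pass (edgeR adjusted p = 0.29).

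The genes of the main receptor substrates did not pass the test. *Irs1* (ENSMUSG00000055980.2, chr1:82233101-82291416, minus strand) had 98.3 and 107 CPM in wild-type against 97.5 and 117 CPM in *Zfp57*-/- cells. The *Zfp57*-/- values lay on either side of the wild-type ones, and the log2 fold change of 0.06 had a 95% interval from -0.37 to 0.49 (edgeR adjusted p = 0.84). Its sign was negative with *Actb* as the scale (-0.61, which is 0.07 above the median of all genes), without wild-type replicate 1 (-0.02) and without *Zfp57*-/- replicate 2 (-0.07). *Irs2* (ENSMUSG00000038894.7, chr8:10984681-11008458, minus strand) had 84.8 and 66.7 CPM in wild-type against 98.7 and 105 CPM in *Zfp57*-/- cells. Its groups did not overlap, but the log2 fold change of 0.43 had a 95% interval from -0.02 to 0.87 (edgeR adjusted p = 0.14). The log2 fold change was 0.58 without wild-type replicate 1, and its sign was negative with *Actb* as the scale (-0.32, or 0.36 above the median of all genes).

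The binding protein genes moved in different directions. *Igfbp3* and *Igfbp4* lie on chromosome 11 and code for secreted proteins that bind IGF1 and IGF2. *Igfbp3* (ENSMUSG00000020427.11, chr11:7206086-7213923, minus strand) had 17.6 and 12.8 CPM in wild-type against 61.6 and 69.5 CPM in *Zfp57*-/- cells. *Igfbp4* (ENSMUSG00000017493.12, chr11:99041244-99054392, plus strand) had 68.2 and 67.9 CPM in wild-type against 32.7 and 29.4 CPM in *Zfp57*-/- cells. The groups did not overlap for either gene, and the gene that was the lower of the pair in wild-type cells was the higher in *Zfp57*-/- cells, also per length (5.62 and 4.09 against 15.5 and 15.4 RPKM in wild-type, 19.7 and 22.2 against 7.41 and 6.67 RPKM in *Zfp57*-/- cells). *Igfbp3* rose by a log2 fold change of 2.11 ± 0.23 (SE, 4.33-fold, edgeR adjusted p = 0.00015), with *Actb* as the scale 1.36 (adjusted p = 0.055, or 2.04 above the median of all genes) in edgeR. *Igfbp4* fell by 1.13 ± 0.19 on the log2 scale (SE, 2.19-fold, edgeR adjusted p = 0.0021), and without *Zfp57*-/- replicate 2 by 1.05 (edgeR adjusted p = 0.060).

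A neighbour of *Igfbp3* that is no member of the list moved the opposite way. *Igfbp1*, which codes for another IGF binding protein, lies 3.54 kb from *Igfbp3* on the other strand (chr11:7197782-7202546, plus strand). It had 430 and 90 counts in wild-type against 1 and 3 counts in *Zfp57*-/- cells. Over the summed libraries the level was 134-fold higher in wild-type cells (95% counting interval 52.0 to 493, exact binomial, counting error only), and its edgeR adjusted p was 0.0048, or 0.16 when no filter on low counts was applied. The wild-type libraries themselves stood far apart, at 53.2 and 8.59 CPM. The fitted log2 fold change of -7.11 was -5.30 without wild-type replicate 1, -7.90 without wild-type replicate 2 and -7.99 without *Zfp57*-/- replicate 2, so that its size depended on single libraries.

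The 250 bases before the RefSeq start of these neighbouring genes, and of *Igfbp4*, are shown because the genes moved in opposite directions and because the zinc finger protein ZFP57 recognises a methylated hexamer. The letters searched on both strands were TGCCGC and its variant GGCCGC, which cannot overlap each other on the same strand but can on opposite strands. Of 32851 RefSeq windows of this length in GRCm38.p6, 8.68% held TGCCGC and 16.1% held GGCCGC. Windows were at hand for 8 of the 10 genes, *Igfbp2* with 2 of them, and of these 9 windows 0 held TGCCGC and 1, that of *Irs1*, held GGCCGC. The window of *Igfbp1* held TGCCGC, printed in capitals. In the windows of *Igfbp3* and *Igfbp4*, capitals mark CpG dinucleotides, and all sequences run from 5′ to 3′ on the strand of the gene.
Igfbp1 (chr11:7197537-7197786, plus strand): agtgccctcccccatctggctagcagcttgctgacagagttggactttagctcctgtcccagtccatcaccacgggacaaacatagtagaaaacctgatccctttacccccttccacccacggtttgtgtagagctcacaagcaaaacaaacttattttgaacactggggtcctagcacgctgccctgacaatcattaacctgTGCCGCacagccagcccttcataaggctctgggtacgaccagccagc
Igfbp3 (chr11:7213924-7214173, minus strand): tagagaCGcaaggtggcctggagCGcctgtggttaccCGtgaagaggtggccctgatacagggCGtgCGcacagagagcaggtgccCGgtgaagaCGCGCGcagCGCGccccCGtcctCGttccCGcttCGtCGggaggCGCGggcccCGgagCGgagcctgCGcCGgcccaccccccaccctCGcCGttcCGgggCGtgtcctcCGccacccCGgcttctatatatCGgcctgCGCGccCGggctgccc
Igfbp4 (chr11:99040994-99041243, plus strand): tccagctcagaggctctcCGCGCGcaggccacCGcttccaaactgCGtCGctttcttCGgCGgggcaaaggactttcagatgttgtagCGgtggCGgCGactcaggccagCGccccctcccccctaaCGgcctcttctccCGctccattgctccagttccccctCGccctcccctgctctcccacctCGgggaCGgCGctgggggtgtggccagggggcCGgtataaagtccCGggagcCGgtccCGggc

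The window of *Igfbp3* held 32 CpG and that of *Igfbp4* 22, against 5 in that of *Igfbp1* and a median of 6 over all windows. Among the other genes the windows held 42 CpG for *Igf1r*, 34 for *Irs2*, 28 for *Irs1*, 14 and 11 for *Igfbp2*, 10 for *Igfbp5* and 5 for *Igf1*. At least 20 CpG were found in 17.9% of all windows. The genes that passed the test thus had windows at either end of this range (*Igf1r* and *Igf1*), as did those that rose (*Igfbp3* and *Igf1*). These are descriptions of the letters and not of binding or methylation, which were not analysed here.

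*Igfbpl1* (ENSMUSG00000035551.6, chr4:45809468-45826923, minus strand), which codes for an IGF binding protein-like protein made in the developing brain, had 87.1 and 98.3 CPM in wild-type against 1.40 and 1.53 CPM in *Zfp57*-/- cells. It fell 62.7-fold (edgeR adjusted p = 1.7e-06), from 703 and 1030 counts to 13 and 15. Leaving out any single library gave log2 fold changes between -6.08 and -5.88. It was the member of the list that moved most.

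*Igfbp2* and *Igfbp5*, whose proteins are the binding proteins with the most transcript in these cells, did not pass the test. They lie 5.46 kb apart on chromosome 1, on opposite strands. *Igfbp2* (ENSMUSG00000039323.18, chr1:72824503-72852474, plus strand) had 414 and 223 CPM in wild-type against 330 and 398 CPM in *Zfp57*-/- cells, with both *Zfp57*-/- values inside the wild-type range. The log2 fold change of 0.19 had a 95% interval from -0.43 to 0.81 (edgeR adjusted p = 0.65). The wild-type libraries differed 1.86-fold from each other, and the sign turned with the library left out. The log2 fold change was 0.68 without wild-type replicate 1 and -0.19 without wild-type replicate 2. With *Actb* as the scale it was -0.64 (0.04 above the median of all genes). *Igfbp5* (ENSMUSG00000026185.8, chr1:72857932-72874884, minus strand) had 393 and 299 CPM in wild-type against 369.6 and 379 CPM in *Zfp57*-/- cells. Its log2 fold change of 0.11 had a 95% interval from -0.34 to 0.56 (edgeR adjusted p = 0.72), and it was -0.08 without wild-type replicate 2 and -0.64 with *Actb* as the scale (0.04 above the median of all genes).

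Per length, *Igfbp2* alone accounted for 66.4% and 54.8% of the summed RPKM of the 5 binding protein genes in wild-type against 66.7% and 70.0% in *Zfp57*-/- cells, and with *Igfbp5* for 85.8% and 77.4% against 89.7% and 90.5%. The sum over the 5 genes was 338 and 220 RPKM in wild-type against 268 and 308 RPKM in *Zfp57*-/- cells, with the *Zfp57*-/- values inside the wild-type range. Set against *Igf2*, this sum was 7.21 and 6.06 times the RPKM of *Igf2* in wild-type against 46.3 and 49.5 times in *Zfp57*-/- cells. These ratios describe transcripts and not proteins. They leave out the ligand gene *Igf1* and also *Igfbp1*, which had 34.9 and 5.63 RPKM in wild-type against 0.07 and 0.20 RPKM in *Zfp57*-/- cells. The sum overlapped between the groups, while *Igf2* did not.

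Of 50 other genes of the IGF and insulin pathway, 47 had enough counts to be tested and 16 passed, 4 higher and 12 lower in *Zfp57*-/- cells (34.0% of those tested, against 27.6% of all genes). The median log2 fold change was -0.31 over these 47 genes and -0.01 over all genes tested. All 3 imprinted genes were lower, among them *Grb10* with 690 and 572 CPM in wild-type against 162 and 185 CPM in *Zfp57*-/- cells (log2 fold change -1.87, edgeR adjusted p = 0.00014). The number past the threshold changed when 1 wild-type library was left out. In such fits the lone library is assumed to vary like the other group.

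Among 5 genes listed for the cleavage of binding proteins or its regulation, 2 passed and both were lower (40% passing, against 27.6% of all genes tested). *Pappa2*, the gene of a protease that cleaves IGFBP5 and IGFBP3, had 360 and 248 counts in wild-type against 2 and 6 counts in *Zfp57*-/- cells (log2 fold change -6.30, edgeR adjusted p = 2.3e-05). The level over the summed libraries was 78.2-fold higher in wild-type cells (95% counting interval 39.5 to 182, exact binomial), and the log2 fold change ranged from -5.76 without *Zfp57*-/- replicate 1 to -7.22 without *Zfp57*-/- replicate 2. *Pappa*, whose protease cleaves IGFBP4, had 63.6 and 23.6 CPM in wild-type against 11.6 and 10.8 CPM in *Zfp57*-/- cells (log2 fold change -1.95, edgeR adjusted p = 0.0060). For *Pappa* the wild-type libraries stood far apart and the *Zfp57*-/- libraries close together, below both. Without wild-type replicate 1 the log2 fold change was -1.10. Of 4 other binding protein genes, *Igfbp1* passed (33.3% of those tested), *Igfbp7* and *Igfals* did not, and *Igfbp6*, with 0 to 4 counts a library, was not tested.

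Among 12 other substrate and adaptor genes, 2 passed as higher and 3 as lower (41.7% passing, against 27.6% of all genes tested). *Irs4*, the X-linked relative of *Irs1* and *Irs2*, had 9.29 and 6.87 CPM in wild-type against 88.1 and 113 CPM in *Zfp57*-/- cells (log2 fold change 3.64, edgeR adjusted p = 1.0e-05). It was the gene of the pathway list with the greatest rise, while *Irs1* and *Irs2* did not pass. *Sh2b2*, an adaptor of the insulin receptor, was lower (20.9 and 21.2 against 4.72 and 5.52 CPM, log2 fold change -2.04, edgeR adjusted p = 0.00055), and so was *Sos2*, an exchange factor for Ras (log2 fold change -1.19, edgeR adjusted p = 0.0031).

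Among 19 genes of PI3K, AKT and mTOR signalling, 1 was higher, 3 were lower and 15 did not pass. The share passing was 21.1%, against 27.6% of all genes tested. *Gsk3b*, the kinase that AKT restrains and that CHIR99021 inhibits, had 257 and 273 CPM against 108 and 123 CPM (log2 fold change -1.19, edgeR adjusted p = 0.0014), but its adjusted p was 0.055 without *Zfp57*-/- replicate 1. Of 4 FoxO genes, transcription factors that AKT keeps out of the nucleus, 1 passed (25%, against the same 27.6%). A further 5 genes past the threshold, named after their values were seen, were *Pik3r3* (log2 fold change -1.16) and *Sos1* (-0.73), which were lower, and *Shc1* (0.88), *Pik3cb* (0.93) and *Foxo3* (0.71), which were higher.

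**Figure D2:**
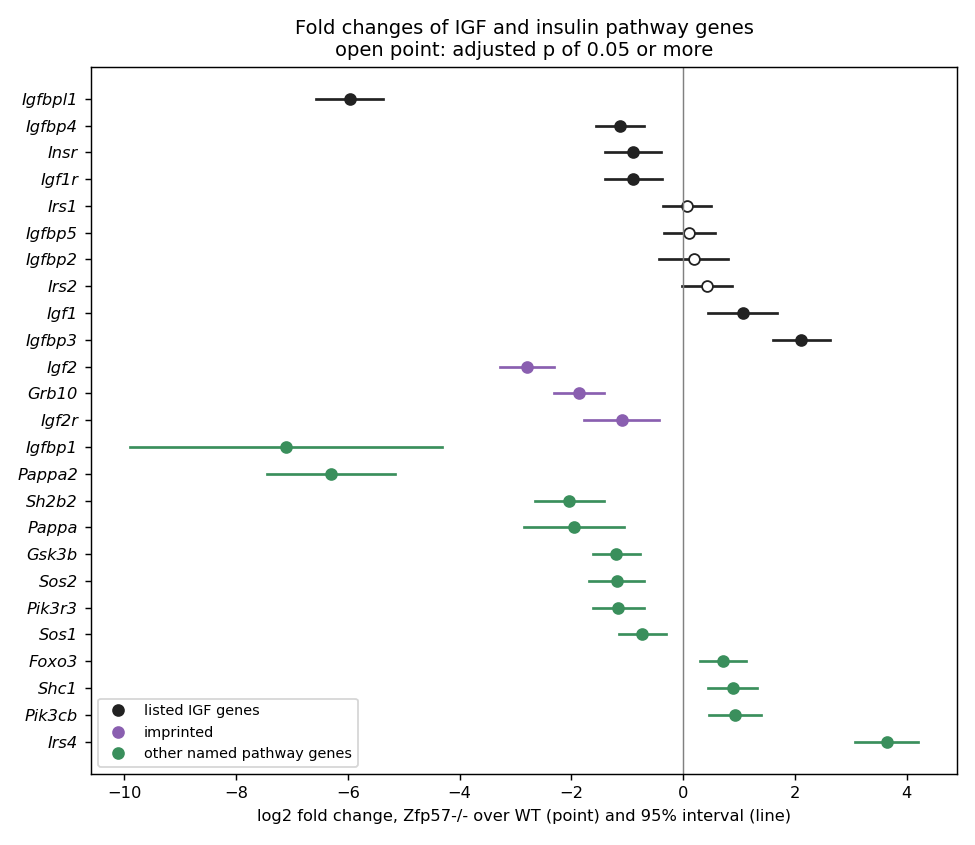
Log2 fold change, *Zfp57*-/- over wild-type (horizontal axis, points), with its 95% interval (lines), for the 10 IGF genes (black), the 3 imprinted genes (purple) and other pathway genes past the threshold that the text names (green), 2 libraries per genotype. Open points, *Irs1*, *Igfbp5*, *Igfbp2* and *Irs2*, did not pass, and *Igfbpl1*, *Igfbp1* and *Pappa2* lie furthest left, at -5.97, -7.11 and -6.30.

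The hybrid origin of the cells let the alleles be read apart. The allelic ratio is the share of allele-assigned reads on the maternal JF1 allele, so that 0.5 stands for equal expression. Of the 10 genes, 3 (*Igfbp2*, *Igfbp5* and *Irs1*) differed in this ratio between genotypes (edgeR adjusted p under 0.05), against 14.5% of the 10977 genes tested. These were genes whose totals did not pass the test.

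*Igfbp2* had allelic ratios of 0.574 and 0.595 in wild-type against 0.733 and 0.745 in *Zfp57*-/- cells, from 1169 to 2047 allelic reads a library. The log2 ratio of JF1 over B6 was higher by 1.02 ± 0.11 (SE, edgeR adjusted p = 9.3e-14). *Igfbp5* had ratios of 0.444 and 0.490 in wild-type against 0.657 and 0.651 in *Zfp57*-/- cells, a difference of 1.11 ± 0.09 in the log2 ratio (SE, edgeR adjusted p = 4.1e-18). *Irs1* had 0.443 and 0.507 in wild-type against 0.605 and 0.639 in *Zfp57*-/- cells, a difference of 0.85 ± 0.21 (SE, edgeR adjusted p = 0.0011). All 3 genes moved toward the maternal allele and no library of either group crossed over. The call of *Irs1* was lost without wild-type replicate 1 (0.69, edgeR adjusted p = 0.082) and with DESeq2 (adjusted p = 0.14).

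All 3 genes lie on chromosome 1, and their surroundings moved with them. The 15 nearest genes of *Igfbp2* and *Igfbp5* read at least 10 times on the alleles in each library had a median ratio of 0.493 in wild-type against 0.690 in *Zfp57*-/- cells, and all 15 were higher in *Zfp57*-/- cells. The 15 nearest genes of *Irs1* had medians of 0.473 and 0.642, and all 15 were higher. Over the 424 such genes that start in the first 140 Mb of the chromosome, without the 3 genes, the median ratio was 0.491 and 0.498 in the wild-type against 0.654 and 0.658 in the *Zfp57*-/- libraries, and 54.1% of the genes tested there passed. Over the 189 genes beyond 140 Mb the medians were 0.477 and 0.484 against 0.485 and 0.489, and 4.78% passed, while on chromosomes 2 to 19 it was 12.8%. The bound of 140 Mb was read from steps of 20 Mb after the values were seen. The median difference in the log2 ratio over the genes before it was 0.96, beside 1.02, 1.11 and 0.85 for *Igfbp2*, *Igfbp5* and *Irs1*. Whether the 3 genes moved for any reason of their own was not tested.

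**Figure D3:**
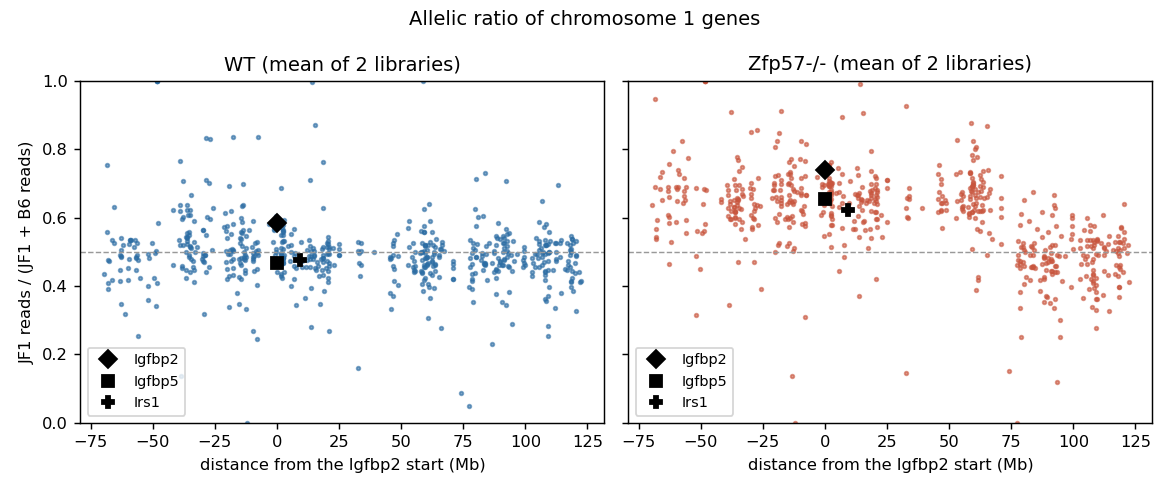
Allelic ratio, JF1 over JF1 plus B6 reads (vertical axis), of chromosome 1 genes (10 or more allelic reads per library) against their distance in Mb from the start of *Igfbp2*, as the mean of 2 wild-type (left) or 2 *Zfp57*-/- (right) libraries, with *Igfbp2*, *Igfbp5* and *Irs1* in black. In *Zfp57*-/- cells the left stretch of the chromosome centres on a ratio of 0.656 and the right end on 0.488, and the 3 genes lie in the raised stretch.

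On each allele alone, the 3 genes leaned in opposite directions without passing. *Igfbp5* had a log2 fold change of 0.57 on JF1 (edgeR adjusted p = 0.063) and -0.56 on B6 (0.097), *Igfbp2* had 0.54 (0.17) and -0.50 (0.25), and *Irs1* had 0.36 (0.34) and -0.50 (0.13). The median over the other chromosome 1 genes before 140 Mb was 0.81 on JF1 and -0.05 on B6, and it was 0.37 for their bulk levels, beside 0.19, 0.11 and 0.06 for *Igfbp2*, *Igfbp5* and *Irs1*.

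The genes that passed in bulk passed on each allele with a single exception. Of the 10 genes, 6 passed on the JF1 allele, against 26% of all genes tested there, and 5 on the B6 allele, against 28.2%. *Igf1r* fell by 0.71 on the log2 scale on JF1 (edgeR adjusted p = 0.031) and fell by 1.02 on B6 (0.0088), and *Insr* had log2 fold changes of -1.09 (0.0061) and -0.86 (0.023). *Igfbp3* had log2 fold changes of 1.89 on JF1 and 1.63 on B6, *Igfbp4* of -1.34 and -1.03, and *Igfbpl1* of -6.47 and -5.41. The JF1 value of *Igfbpl1* rests on 0 and 2 JF1 reads in the *Zfp57*-/- libraries, and *Igfbp3* had only 43 and 50 allelic reads in the wild-type libraries. *Igf1* passed on JF1 (log2 fold change 1.10, edgeR adjusted p = 0.033) and not on B6 (0.56, adjusted p = 0.29), but it had only 40 to 130 allelic reads a library, and its allelic ratios of 0.475 and 0.608 in wild-type against 0.638 and 0.654 in *Zfp57*-/- cells gave no call of a difference (edgeR adjusted p = 0.53). On the B6 allele 3 genes passed without *Zfp57*-/- replicate 1 and 2 without *Zfp57*-/- replicate 2.

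**Figure D4:**
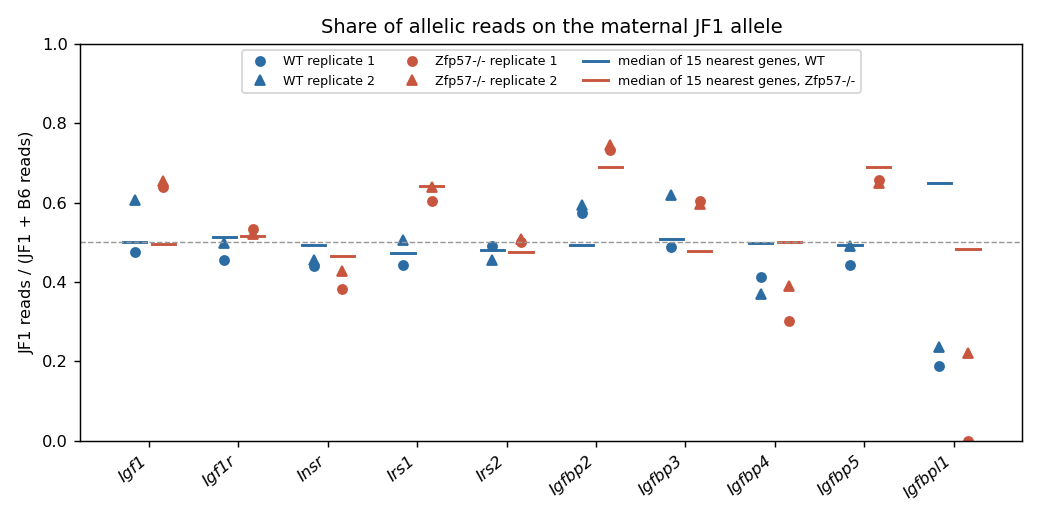
Share of allelic reads on the maternal JF1 allele (vertical axis) for the 10 genes in each library, with short lines for the median of the 15 nearest genes in wild-type (blue) and *Zfp57*-/- (red) cells. *Igfbp2*, *Igfbp5* and *Irs1* sit higher in *Zfp57*-/- cells together with their neighbours, and *Igfbpl1* sits at 0.189 and 0.236 in wild-type cells below a neighbour median of 0.649. The neighbour median of *Igfbpl1* was 0.483 in *Zfp57*-/- cells.

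Within wild-type cells 4 of the 10 genes differed between the alleles (edgeR adjusted p under 0.05), against 23.6% of the genes tested. *Igfbpl1* was the most uneven, with 72 of 380 and 125 of 530 reads on JF1, ratios of 0.189 and 0.236 (edgeR adjusted p = 9.4e-19). In *Zfp57*-/- cells it had 2 JF1 reads of 19 over both libraries, a ratio of 0.105 with a 95% Wilson interval from 0.029 to 0.314 that covers the wild-type value, so that a difference was not detectable at this depth. The 15 nearest genes of *Igfbpl1* had a median ratio of 0.649 in wild-type against 0.483 in *Zfp57*-/- cells. Of these 15 genes, 7 passed the allelic test between genotypes (edgeR), against 14.5% of all genes tested. The ratio was higher in *Zfp57*-/- cells for 3 of the 15. *Igfbp4*, like *Igfbpl1*, was weighted to B6 in wild-type cells, with ratios of 0.412 and 0.371 (edgeR adjusted p = 0.00034). *Igfbp2* was weighted to JF1 and *Igfbp5*, beside it, slightly to B6 (edgeR adjusted p = 6.2e-08 and 0.023). *Igf1r*, *Insr* and *Irs2* had ratios between 0.441 and 0.498 in wild-type cells, and between 0.382 and 0.533 in *Zfp57*-/- cells. *Igf2*, by contrast, had 0.142 and 0.148 in wild-type against 0.241 and 0.231 in *Zfp57*-/- cells, so that most of its reads stayed on the paternal allele while its level fell.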

How the data were processed

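RNA-seq of the 4 day 12 libraries (2 wild-type, 2 *Zfp57*-/-, grouped by the labels) was done by the authors with a stranded, ribosomal RNA-depleted kit. Per the labels and methods, reads were trimmed with Trimmomatic 0.36 and aligned uniquely with STAR 2.5.4a to GRCm38 for the bulk table, and to the genome with strain variants masked for the allelic table. Per the file headers, both were counted by strand with featureCounts of Subread 1.6.0. The deposited values are raw counts per gene, for all reads and for reads assigned to JF1 or B6 with SNPsplit. Allelic counts are fewer than bulk counts, and a mapping bias between alleles was not tested.

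Bulk counts were tested with the robust quasi-likelihood test of edgeR 4.0.16 (TMM scaling, genes with more than 8 counts in all, R 4.3.3), with Benjamini-Hochberg adjustment over all genes and a threshold of 0.05. The deposited table names genes by Ensembl ID, and 54721 of 55602 IDs had a symbol. Allelic ratios were compared in edgeR by the difference of 2 allele effects, that in *Zfp57*-/- and that in wild-type, with libraries as terms (autosomal genes with at least 10 allelic counts in both wild-type libraries), and each allele was tested with the bulk scaling. Intervals for low counts cover counting error only. Scripts were tested on simulated data. Alternatives were DESeq2 1.42.0, its size factors, *Actb* as the scale, other filters, a threshold of 0.01, a replicate block and leaving out each library.

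The genes and lists were chosen with earlier results of these data known. Named were the 10 genes, *Igf2*, *Igf2r*, *Grb10*, the 8 other pathway genes past the threshold with the greatest change, pathway genes at 0, the summed markers with the first listed gene or genes at 0, and for each of the 10 past the threshold the 2 genes with the nearest pattern. Some items that this rule names are not reported here.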

Additional observations from a re-analysis of the deposited data

Results flagged for a closer look

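The allelic ratios of 3 genes differed between genotypes in an interaction test. The difference in the log2 ratio of JF1 over B6 reads, *Zfp57*-/- minus wild-type, was 1.02 for *Igfbp2*, 1.11 for *Igfbp5* and 0.85 for *Irs1* (edgeR adjusted p = 9.3e-14, 4.1e-18 and 0.0011), with both *Zfp57*-/- libraries above both wild-type libraries for each gene. Over the other genes tested in the first 140 Mb of chromosome 1 the median of the same difference was 0.96.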

How the results depend on the processing

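The direction of the 6 genes past the threshold was the same under every alternative run. DESeq2, its size factors in edgeR, no filter, at least 10 counts in 2 libraries and the replicate block each left 6 of the 10 genes past the threshold, and *Actb* as the scale left 4. A threshold of 0.01 left 3. Leaving out 1 library gave 2 to 8 of the 10 genes (the lone library is assumed to vary like the other group), 11 to 35 of the 50 pathway genes, 4 to 8 genes on the JF1 allele and 2 to 7 on the B6 allele. Over all genes these fits made 2831 to 9947 calls, against 5522 with all libraries. Of the genes that did not pass, *Irs1*, *Irs2*, *Igfbp2* and *Igfbp5* turned negative with *Actb* as the scale (log2 fold changes -0.61, -0.32, -0.64 and -0.64), and without 1 library they ranged from -0.067 to 0.195 for *Irs1*, from -0.19 to 0.68 for *Igfbp2* and from -0.075 to 0.295 for *Igfbp5*. The allelic differences of *Igfbp3* (0.25) and *Igfbpl1* (-1.07), which did not pass, ranged from -0.12 to 0.65 and from -4.48 to 0.12 without 1 library, and the cause of these turns was not tested. The labels' replicate numbers name no shared culture. Same-numbered libraries deviated together with a correlation of 0.14 over 11880 genes, and the replicate block moved the pathway count from 16 to 23, the JF1 count from 6 to 8 and left the B6 count at 5. Depth limits *Igf1*, *Igfbp3* and *Igfbpl1* on the alleles.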

Other observations

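The nearest patterns over the 4 libraries, by Euclidean distance of centred log2 CPM among 11289 named genes, were as follows. For *Igf1* they were those of *B4galnt2* (11.9 and 18.5 against 26.1 and 38.2 CPM, distance 0.058) and *Relt* (0.092). *Igf1r* was nearest to *Klhl15* (35.9 and 23.1 against 15.8 and 16.1 CPM, distance 0.019) and *Pdzd2* (0.041), and *Insr*, after *Igf1r* itself, to *Ldha*, a glycolytic enzyme gene (1113 and 788 against 513 and 548 CPM, distance 0.069). *Igfbp3* was nearest to *Unc5b*, a netrin receptor gene (38.3 and 27.5 against 128 and 138 CPM, distance 0.098), and to *Rfx6* (0.11). *Igfbp4* was nearest to *Plk3* (61.9 and 64.9 against 30.2 and 27.0 CPM, distance 0.057) and *Cbx8*, a Polycomb gene (0.064). *Igfbpl1* was nearest to *Gpr22* (9.91 and 13.1 CPM in wild-type, 0 counts in *Zfp57*-/- cells, distance 0.18) and *Cntnap5a* (0.21). With 4 libraries, such nearness mostly restates the size of the difference between genotypes.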
